A study of Mus musculus with 6 samples.

Results

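After knockdown of *Snhg18* in mPASMCs, the smooth muscle cells of the mouse pulmonary artery, 10 genes of the YAP/TAZ and TEAD pathway and of the CCN family of matricellular proteins were followed. They are the coactivator genes *Yap1* and *Wwtr1*, the DNA-binding partners *Tead1* and *Tead3*, the pathway regulator *Amotl2*, and *Ccn1* to *Ccn5*. They were chosen by name from the families with earlier results of these data known, and they are 10 of the 55487 genes in the count table. They do not cover every family gene: *Tead2*, *Tead4* and *Ccn6* are not among them. All 10 passed the filter on low counts, which kept 14531 genes. *Snhg18* is a long noncoding RNA that hosts a small nucleolar RNA, and the study addressed its part in hypoxic pulmonary hypertension. The cells were commercial mouse PASMCs, transfected with a control siRNA (si-NC, 3 libraries) or with siRNA against *Snhg18* (si-*Snhg18*, 3 libraries). For the cells that were sequenced, neither the oxygen level nor the time since transfection was given in the sources used here. The labels number the libraries of each group 1 to 3 and do not say whether these were separate cultures, so the p-values measure the spread between these libraries, which may be technical. RNA was measured in bulk, and neither protein levels nor the location of the coactivators in the cell were analysed here.

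YAP and TAZ (the product of *Wwtr1*) are transcriptional coactivators that have no DNA-binding domain of their own and reach their target genes mainly through TEAD proteins. The Hippo kinases MST and LATS phosphorylate them, which keeps them in the cytoplasm, whereas spreading and tension of the cell favour their entry into the nucleus. *Ccn1* (Cyr61) and *Ccn2* (Ctgf) are textbook target genes of YAP, TAZ and TEAD, and their secreted products bind integrins and heparan sulfate proteoglycans at the cell surface and in the matrix. In vascular smooth muscle the pathway is known for its part in growth and in the response to mechanical load.

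Total counts ranged from 18097718 to 25988746 reads per library, so a count of 3 reads corresponds to 0.115 to 0.166 CPM, the counts scaled to a common library total with TMM normalization. *Snhg18* itself was at 23.5, 22.4 and 22.2 CPM in the si-NC libraries and at 10.6, 11.2 and 9.97 CPM in the si-*Snhg18* libraries. It fell to 46.7% of the control level (log2 fold change -1.10, adjusted p = 0.00727, edgeR quasi-likelihood test with Benjamini-Hochberg adjustment). The summed level of 7 smooth muscle markers was 1748 to 1895 CPM in si-NC and 1199.9 to 1850.0 CPM in si-*Snhg18*. Of the 7, 1 (*Tagln*) fell without the block on the library number described below and 4 fell with it. These were *Tagln* (log2 fold change -0.51, adjusted p = 0.0427 without the block), *Cnn1* (-0.49, adjusted p = 0.0113 with it), *Myh11* (-0.67, adjusted p = 0.0207) and *Des*, which was left at 29.6% of its control level (adjusted p = 0.00154). *Acta2* (-0.27, adjusted p = 0.148, edgeR with the block), *Lmod1* (-0.38, adjusted p = 0.291) and *Smtn* (0.006, adjusted p = 0.953) were called in neither fit. Among all tested genes, 3.71% fell without the block and 13.6% with it. The sums of 4 fibroblast markers were 512 to 583 and 369 to 504 CPM. *Pdgfra* made up most of them, and it fell with the block (-0.35, adjusted p = 0.0112) and was not called without it. The other 3 were called in neither fit. Endothelial markers summed to at most 15.4 CPM, and the 3 epithelial markers had at most 3 reads in any library. Most of the endothelial sum was *Cdh5*, at 9.34 to 11.1 CPM and called in neither fit. *Tek*, with at most 32 reads, fell with the block (-1.47, adjusted p = 0.0341, edgeR) and was not called without it. The leukocyte list summed to 102 to 126 CPM in si-NC and 56.4 to 63.3 CPM in si-*Snhg18*. Most of that sum was *Cd53*, whereas the defining leukocyte gene *Ptprc* had at most 8 reads and *Adgre1* had none. The other listed genes were detected in every library, *Csf1r* at 2.81 to 8.55 CPM and *Cd68* at 1.86 to 3.52 CPM. Neither *Csf1r* nor *Cd68* was called in either fit. The part of these differences in the results below was not tested. In bulk RNA, fewer cells of a type and less RNA per cell cannot be told apart.

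TEAD proteins recognise the letters GGAATG, which read as CATTCC on the opposite strand, known from muscle genes as the MCAT element, and the promoters are shown because the members are linked by this DNA-binding step. The RefSeq promoter table (GRCm38.p6, 250 bases before to 50 bases after each start) held 8 promoters for 5 members, and *Tead1*, *Ccn2*, *Ccn3*, *Ccn4* and *Ccn5* had no entry in it. Each sequence below runs 5′ to 3′ in the direction of its gene, with the letters in capitals and 12 bases on each side.
Ccn1: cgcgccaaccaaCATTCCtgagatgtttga
Yap1: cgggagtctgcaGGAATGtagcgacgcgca
Wwtr1: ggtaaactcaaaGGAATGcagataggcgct
Tead3: gacgacgagcgaGGAATGgggtgcgcggga
Amotl2: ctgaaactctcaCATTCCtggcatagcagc

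The windows lie at chr3:145650071-145650100 (*Ccn1*, minus strand), chr9:8004720-8004749 (*Yap1*, minus strand), chr3:57576029-57576058 (*Wwtr1*, minus strand), chr17:28350970-28350999 (*Tead3*, minus strand) and chr9:102717727-102717756 (*Amotl2*, plus strand) of GRCm38.p6. Relative to the annotated start, the letters begin at -103 in *Ccn1*, -141 in *Yap1*, -182 in *Tead3* and -65 in *Amotl2*, and at -136 and -170 from the 2 starts of *Wwtr1*. *Tead3* held 3 further matches, at -123, -114 and 2 relative to another of its starts, all of them inside an annotated exon. Of the windows printed, that of *Amotl2* lies inside an annotated exon of its gene, and the others lie outside theirs. Of the 8 promoters of members, 7 held the letters on either strand, against 4817 of all 32851 promoters (14.7%). The 2 promoters of *Wwtr1* overlap and hold the same site. By gene, the share was 14.5% of the tested genes with a promoter entry. It was 7 of 15 such genes of the TEAD target list described below, *Ccn1* and *Amotl2* among them. It was 7 of 19 such genes of the Hippo list, also described below. *Lats2* and *Ptpn14* are on both lists and hold the letters, so they count in both shares. By call in the fit with the block, the letters were in 16.1% of the genes that fell. They were in 14.2% of those that rose and in 14.2% of those not called. The CArG box, the serum response factor element of smooth muscle genes, was in none of the members' promoters and in 1.63% of all promoters. A match of letters is a description of the sequence, and binding was not measured.

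*Ccn1* is shown at more length because, of the members that fell in both fits described below (*Tead3* and *Ccn1*), it is the textbook target gene. The 250 bases before its start (chr3:145649986-145650235, minus strand) are given with the same letters in capitals.
Ccn1 upstream: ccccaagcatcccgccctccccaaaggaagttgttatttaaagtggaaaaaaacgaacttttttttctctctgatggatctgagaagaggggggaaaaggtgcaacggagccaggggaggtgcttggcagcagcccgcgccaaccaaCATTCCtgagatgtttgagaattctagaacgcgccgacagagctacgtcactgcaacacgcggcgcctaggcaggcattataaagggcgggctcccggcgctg

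Knockdown of *Snhg18* was accompanied by lower *Tead3* and *Ccn1* and by no call for the other 8 members when libraries were compared without regard to their number. When the fit also held the replicate number of each library as a block, so that libraries were compared within numbers, *Yap1* and *Wwtr1* rose and *Tead3*, *Ccn1*, *Ccn2* and *Ccn5* fell. Without the block, 0 members rose and 2 fell by edgeR's quasi-likelihood test at an adjusted p under 0.05, 3 had an unadjusted p under 0.05, and DESeq2 and limma-voom called 2 members each. The background in that fit was 7.36% of all tested genes called and 3.71% called lower. With the block, 2 members rose and 4 fell, against a background of 27.2% called, 13.6% higher and 13.6% lower. The median log2 fold change of the 10 members was -0.18 without the block and -0.21 with it, beside 0.01 and 0.00 over all tested genes. The si-NC and si-*Snhg18* libraries did not overlap for 3 of the 10 members (*Yap1*, *Tead3* and *Ccn1*), a share close to the 30.9% of all tested genes whose groups did not overlap.

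**Figure D1:**
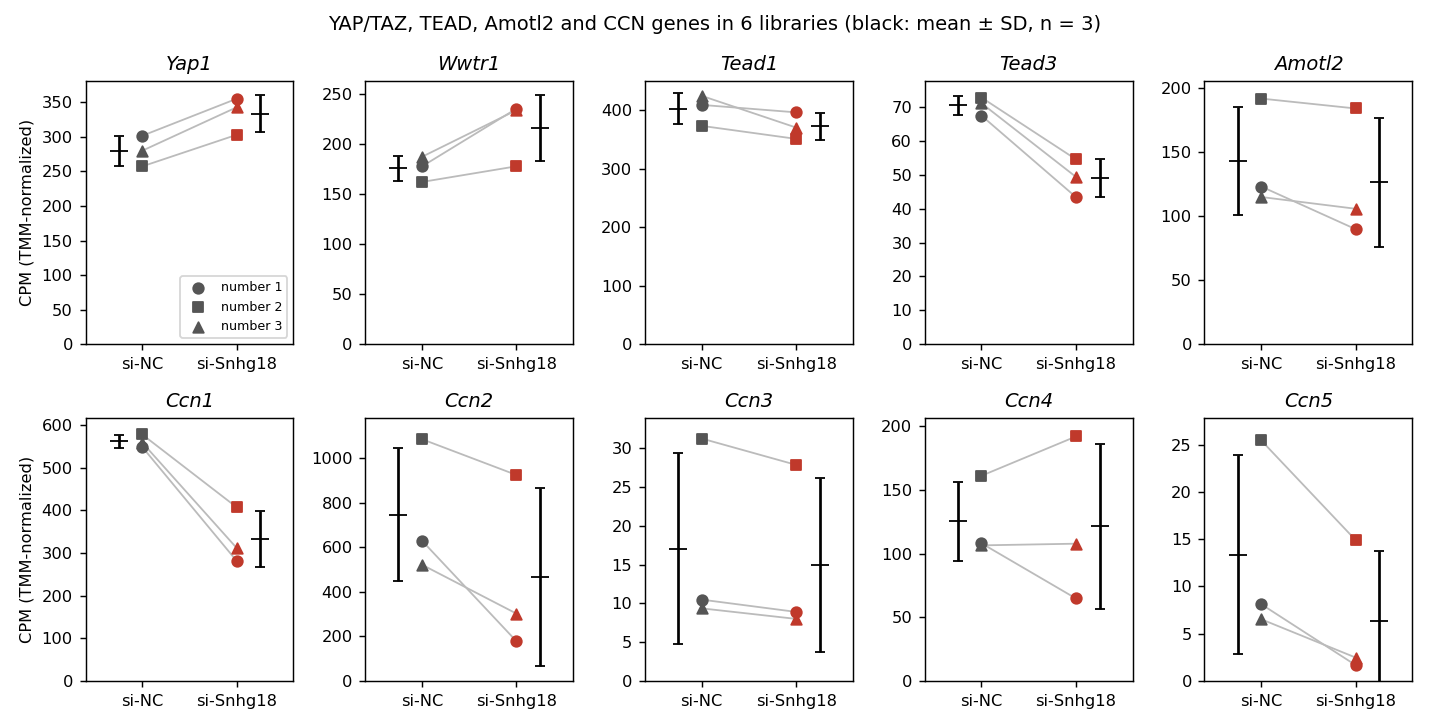
Normalized level (CPM, linear axis from 0) of each of the 10 genes in the 6 libraries, with a symbol for each library number, grey lines that join libraries of the same number, and black bars for the mean ± SD of 3 libraries; the SD bar of *Ccn5* in si-*Snhg18* would pass below 0 and is cut at the axis. *Yap1*, *Tead3* and *Ccn1* form separate groups, whereas library 2 stands above libraries 1 and 3 of its own group for *Ccn2* to *Ccn5* and *Amotl2*.

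The coactivator genes had modestly higher values in si-*Snhg18*, and they rose in the fit with the block. *Yap1* (ENSMUSG00000053110, chromosome 9, 7931999 to 8004596, minus strand, GRCm38) was at 302, 257 and 279.9 CPM in si-NC 1 to 3 and at 355, 303 and 343 CPM in si-*Snhg18* 1 to 3. Every si-*Snhg18* library lay above every si-NC library, although si-*Snhg18* 2 exceeded si-NC 1 only slightly. The mean was 279.6 ± 22.1 CPM against 334 ± 27.3 CPM (SD, n = 3 each). Without the block the log2 fold change of 0.26 (95% interval 0.03 to 0.48) did not pass the test (edgeR quasi-likelihood, adjusted p = 0.156). With the block it was 0.25 (0.13 to 0.38) and passed (adjusted p = 0.0132), since the log2 ratio within each number was much the same, at 0.24, 0.24 and 0.29. That call was lost when the pair of libraries numbered 3 was left out (adjusted p = 0.18, edgeR). *Yap1* overlaps a short opposite-strand transcript by 116 bases, but that transcript had at most 2 reads.

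*Wwtr1* (ENSMUSG00000027803, chromosome 3, 57455649 to 57575910, minus strand) encodes TAZ. Its levels were 177, 162 and 187 CPM in si-NC and 235, 178 and 234 CPM in si-*Snhg18*. The groups overlapped, because si-*Snhg18* 2 lay below si-NC 3. Means were 175 ± 12.7 and 215.5 ± 32.8 CPM (SD, n = 3), and the log2 fold change without the block was 0.30 (-0.01 to 0.60, adjusted p = 0.208, edgeR). With the block it was 0.29 (0.13 to 0.45, adjusted p = 0.0204), with log2 ratios of 0.41, 0.13 and 0.32 in numbers 1, 2 and 3. Without pair 3 this call was lost too (adjusted p = 0.189, edgeR).

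The balance between the coactivators was measured as a share of reads per kilobase of exon, which does not depend on library scaling. *Wwtr1* made up 35.8% ± 1.46 of the sum of *Yap1* and *Wwtr1* in si-NC and 36.3% ± 1.84 in si-*Snhg18* (SD, n = 3, difference 0.516 percentage points, exact permutation test, two-sided, p = 0.8). With 3 libraries per group this test cannot go below 0.1.

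Among the TEAD genes, *Tead3* fell and *Tead1* did not pass the test. *Tead3* (ENSMUSG00000002249, chromosome 17, 28331671 to 28350817, minus strand) was at 67.5, 72.8 and 71.1 CPM in si-NC and at 43.4, 54.6 and 49.4 CPM in si-*Snhg18*. All si-*Snhg18* libraries were lower than all si-NC libraries, and the distance between the groups was wider than the spread within either. The mean went from 70.5 ± 2.73 to 49.1 ± 5.58 CPM (SD, n = 3), which leaves 69.7% of the control level. The log2 fold change was -0.52 (-0.76 to -0.28, adjusted p = 0.0325, edgeR) without the block and -0.53 (-0.69 to -0.36, adjusted p = 0.00251) with it. The call without the block was lost when any library other than si-*Snhg18* 2 was left out, at adjusted p of 0.066 to 0.151. The call with the block was lost without pair 3 (adjusted p = 0.0589).

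*Tead1* (ENSMUSG00000055320, chromosome 7, 112679318 to 112906807, plus strand) is the TEAD gene with the highest level here. It was at 409.5, 374 and 425 CPM in si-NC and 397, 351 and 371 CPM in si-*Snhg18*, with overlapping groups. Its log2 fold change was -0.11 (-0.30 to 0.08, adjusted p = 0.44, edgeR) without the block and -0.11 (-0.25 to 0.02, adjusted p = 0.197) with it. Per kilobase of exon, *Tead3* was 40.3% ± 2.24 of the sum of *Tead1* and *Tead3* in si-NC and 33.7% ± 3.90 in si-*Snhg18* (SD, n = 3). The shares in the libraries were 38.8%, 42.9% and 39.2% in si-NC and 29.7%, 37.4% and 33.9% in si-*Snhg18*, without overlap. The difference of -6.64 percentage points reached the smallest p of the exact two-sided permutation test (p = 0.1), which does not pass 0.05.

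*Amotl2* (ENSMUSG00000032531, chromosome 9, 102716672 to 102733418, plus strand) encodes an angiomotin family protein that binds YAP and is itself a target gene of the pathway. It was at 123, 192 and 115 CPM in si-NC and at 89.7, 184 and 106 CPM in si-*Snhg18*. Library 2 was the highest of both groups, and the groups overlapped. Neither fit called it, with log2 fold changes of -0.18 (-0.94 to 0.58, adjusted p = 0.766, edgeR) without the block and -0.21 (-0.41 to -0.01, adjusted p = 0.107) with it.

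*Ccn1* was the CCN gene whose lower level passed the test in both fits. *Ccn1* (ENSMUSG00000028195, chromosome 3, 145646976 to 145649981, minus strand) is an immediate early gene whose secreted product acts on adhesion and migration through integrins. It was at 549, 578 and 559 CPM in si-NC and at 281, 407 and 311 CPM in si-*Snhg18*. The 3 control libraries lay close together, and all 3 si-*Snhg18* libraries lay well below them, with si-*Snhg18* 2 the nearest. The mean fell from 562 ± 14.8 to 333 ± 65.7 CPM (SD, n = 3), to 59.3% of the control level. The log2 fold change was -0.75 (-1.09 to -0.42, adjusted p = 0.0304, edgeR) without the block and -0.77 (-0.98 to -0.56, adjusted p = 0.0016) with it. Leaving out any library other than si-*Snhg18* 2 raised the adjusted p without the block to between 0.0667 and 0.152. With the block, the adjusted p was at most 0.0431 when a pair was left out.

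**Figure D2:**
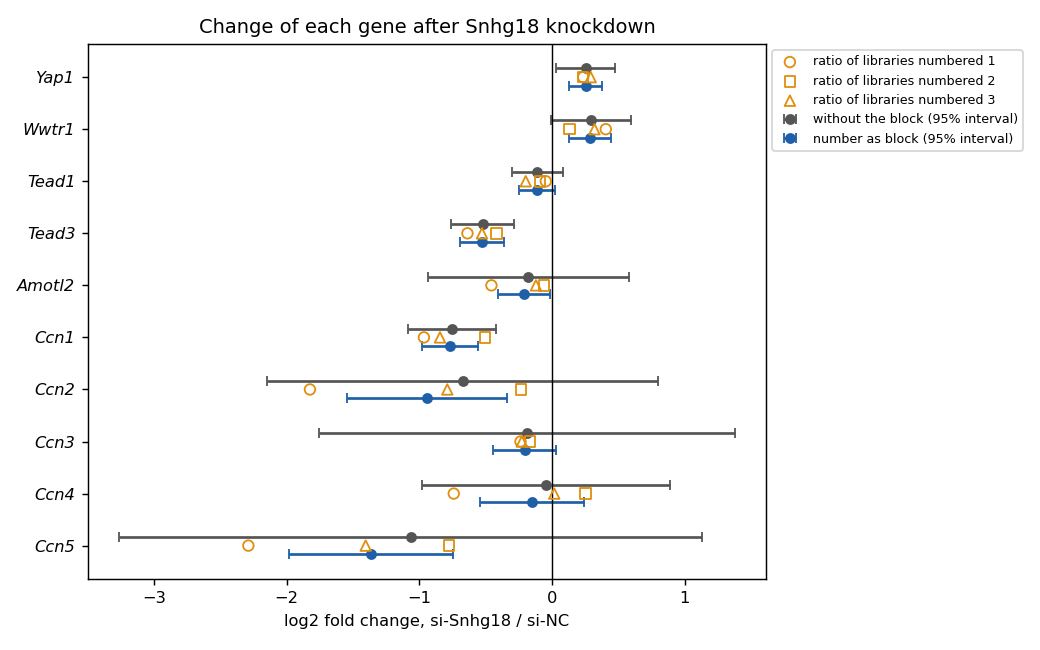
Log2 fold change of si-*Snhg18* over si-NC for each of the 10 genes, from the edgeR fits without the block (dark grey) and with it (blue), each with its 95% interval, beside the log2 ratio within each library number (open orange symbols). The intervals of *Ccn2* to *Ccn5* and *Amotl2* narrow the most with the block, while the values for *Yap1*, *Tead3* and *Ccn1* hardly move.

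*Ccn2* (ENSMUSG00000019997, chromosome 10, 24595442 to 24598683, plus strand), a profibrotic matricellular factor, varied far more between the libraries of a group. Its levels were 629.8, 1086 and 522 CPM in si-NC and 178, 925 and 302 CPM in si-*Snhg18*. Library 2 was the highest in each group, and si-*Snhg18* 2 lay above si-NC 1 and 3, so the groups overlapped. Without the block the means of 746 ± 299 and 468 ± 400.2 CPM (SD, n = 3) gave a log2 fold change of -0.67 with an interval from -2.15 to 0.80 (adjusted p = 0.541, edgeR). Within numbers the log2 ratios were -1.82, -0.23 and -0.79, all negative. With the block *Ccn2* fell to 52.1% of the control level (log2 fold change -0.94, interval -1.54 to -0.34, adjusted p = 0.0331). That call was lost without pair 3 (adjusted p = 0.145) and in DESeq2 with the block (adjusted p = 0.115). *Ccn2* overlaps an opposite-strand transcript by 347 bases, which had at most 33 reads in a library.

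*Ccn5* (ENSMUSG00000027656, chromosome 2, 163820861 to 163833146, plus strand) encodes the CCN protein that lacks the C-terminal domain of the family and is known in vascular smooth muscle as a growth inhibitor. It was at 8.12, 25.4 and 6.52 CPM in si-NC and at 1.66, 14.9 and 2.47 CPM in si-*Snhg18*, from 42 to 623 reads. Its within-group SD of log2 CPM was 1.38, above that of 99.2% of the tested genes. The log2 fold change without the block was -1.06 with an interval from -3.26 to 1.14 (adjusted p = 0.516, edgeR). In each number the si-*Snhg18* library was the lower, with log2 ratios of -2.29, -0.77 and -1.40, and with the block *Ccn5* fell to 38.8% of the control level (log2 fold change -1.36, -1.98 to -0.75, adjusted p = 0.00974). This call too was lost without pair 3 (adjusted p = 0.0815).

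*Ccn3* (ENSMUSG00000037362, chromosome 15, 54745702 to 54754039, plus strand), known to counteract CCN2 in several tissues, passed neither test. It was at 10.5, 31.3 and 9.36 CPM in si-NC and at 8.90, 27.9 and 8.00 CPM in si-*Snhg18*. The level of library 2 was well above that of libraries 1 and 3, while the difference between the groups within a number was small, with log2 ratios of -0.24, -0.17 and -0.23. The interval of the log2 fold change was -1.75 to 1.38 without the block (adjusted p = 0.887, edgeR) and -0.44 to 0.03 with it (adjusted p = 0.171).

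*Ccn4* (ENSMUSG00000005124, chromosome 15, 66891320 to 66923201, plus strand), known as a Wnt-responsive gene, was at 108, 161 and 106 CPM in si-NC and at 64.7, 192 and 108 CPM in si-*Snhg18*. The log2 ratio was -0.74 in number 1, 0.25 in number 2 and 0.02 in number 3, so the numbers did not share a direction. The log2 fold change was -0.04 (-0.98 to 0.89, adjusted p = 0.959, edgeR) without the block and -0.15 (-0.54 to 0.24, adjusted p = 0.549) with it. The remaining family gene *Ccn6* had at most 1 read in a library and was not tested.

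The members separated by how much they differed between libraries of the same group. The within-group SD of log2 CPM was 0.09 to 0.20 for *Tead1*, *Yap1*, *Tead3*, *Wwtr1* and *Ccn1*, below the median of 0.21 over all tested genes. It was 0.48 for *Amotl2*, 0.60 for *Ccn4*, 0.94 for *Ccn2*, 0.97 for *Ccn3* and 1.38 for *Ccn5*, which places these 5 genes above 81.5% to 99.2% of the tested genes. For the same 5 genes, library 2 exceeded the mean of libraries 1 and 3 by more than 0.5 log2 CPM in both groups, a criterion set after the values were seen that 8.22% of all tested genes met. In *Ccn2* the excess was 0.92 in si-NC and 2.00 in si-*Snhg18*, in *Ccn3* 1.65 and 1.71, in *Ccn4* 0.59 and 1.20, in *Ccn5* 1.79 and 2.83, and in *Amotl2* 0.69 and 0.92. For the coactivator genes the same difference was negative, at -0.18 and -0.20 in *Yap1* and at -0.17 and -0.40 in *Wwtr1*. The first principal component of all tested genes held 56.5% of the variance, and on it si-NC 2 (-51.9) and si-*Snhg18* 2 (-32.5) lay at the end opposite to si-*Snhg18* 1 (55.4) and si-*Snhg18* 3 (36.1). Between them lay si-NC 1 (-6.80) and si-NC 3 (-0.299). In each number the si-*Snhg18* library had the higher value, so this component holds differences by group as well as by number. The labels do not say what sets the libraries numbered 2 apart.

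**Figure D3:**
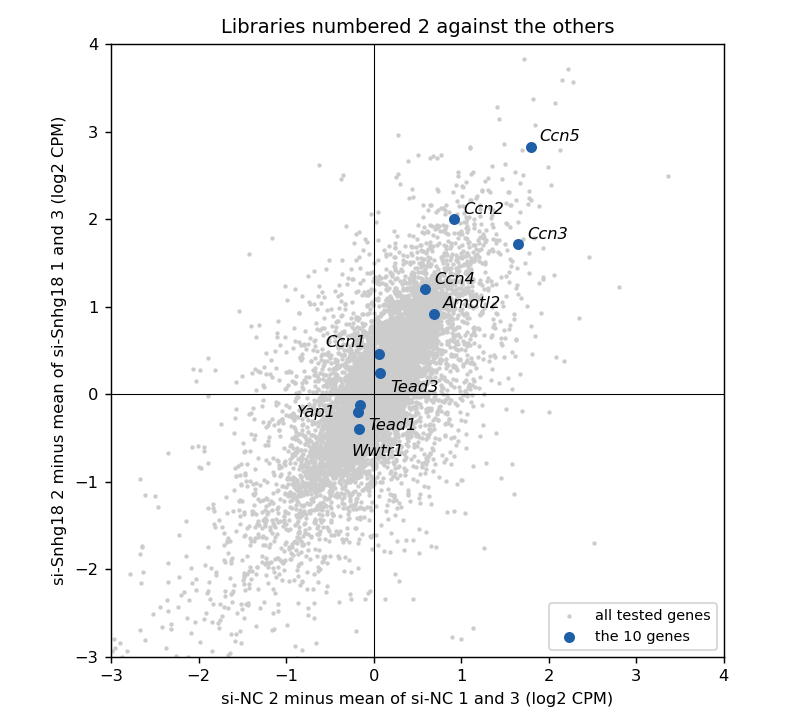
Excess of library 2 over the mean of libraries 1 and 3 in si-NC (horizontal axis) and in si-*Snhg18* (vertical axis), both in log2 CPM, for all tested genes (grey; 73 genes lie outside the axes) and for the 10 members (named). *Ccn2*, *Ccn3*, *Ccn4*, *Ccn5* and *Amotl2* lie in the upper right and *Yap1*, *Wwtr1* and *Tead1* in the lower left.

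When si-*Snhg18* 2 was left out, the fit without the block also called *Ccn2* (log2 fold change -1.64, adjusted p = 0.0278, edgeR), *Ccn5* (-2.72, adjusted p = 0.0385), *Yap1* (0.32, adjusted p = 0.0415) and *Wwtr1* (0.41, adjusted p = 0.0178). With *Tead3* and *Ccn1* these are the same 6 members that were called with the block. Both fits draw on the same libraries, so the match is no separate support. The fit without si-*Snhg18* 2 called 3282 of 14832 tested genes, and it kept si-NC 2, the highest si-NC library for *Ccn2* and *Ccn5*. The folds of *Ccn2* and *Ccn5* shrank when other libraries were left out. The log2 fold change of *Ccn2* was -0.30 without si-NC 2, -0.28 without si-*Snhg18* 1 and -0.44 without si-*Snhg18* 3. That of *Ccn5* was -0.20 without si-NC 2, -0.61 without si-*Snhg18* 1 and -0.69 without si-*Snhg18* 3, and none of these passed the test.

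Levels were compared between genes per kilobase of exon. In si-NC, *Ccn2* was at 311 ± 125 and *Ccn1* at 278 ± 7.35 CPM per kilobase (SD, n = 3), and the order of these genes cannot be told from their spread. *Yap1* followed at 67.0 ± 5.31, *Tead1* at 40.4 ± 2.65, *Wwtr1* at 37.4 ± 2.70, *Amotl2* at 33.9 ± 9.99, *Tead3* at 27.3 ± 1.06 and *Ccn4* at 24.6 ± 6.10 CPM per kilobase. *Ccn5* (7.77 ± 6.10) and *Ccn3* (5.94 ± 4.30) were the lowest. From *Tead1* to *Ccn4*, and between *Ccn5* and *Ccn3*, neighbours in this order differed by less than the sum of their SDs. In si-*Snhg18*, *Ccn2* was at 195 ± 167 and *Ccn1* at 165 ± 32.5 CPM per kilobase. *Ccn2* made up 48.4% ± 7.75 of the reads per kilobase of the 5 CCN genes in si-NC and 44.5% ± 14.1 in si-*Snhg18* (difference -3.89 percentage points, exact permutation test, two-sided, p = 0.7), and *Ccn1* 45.7% ± 8.79 and 47.4% ± 14.8 (p = 0.9 by the same exact test).

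**Figure D4:**
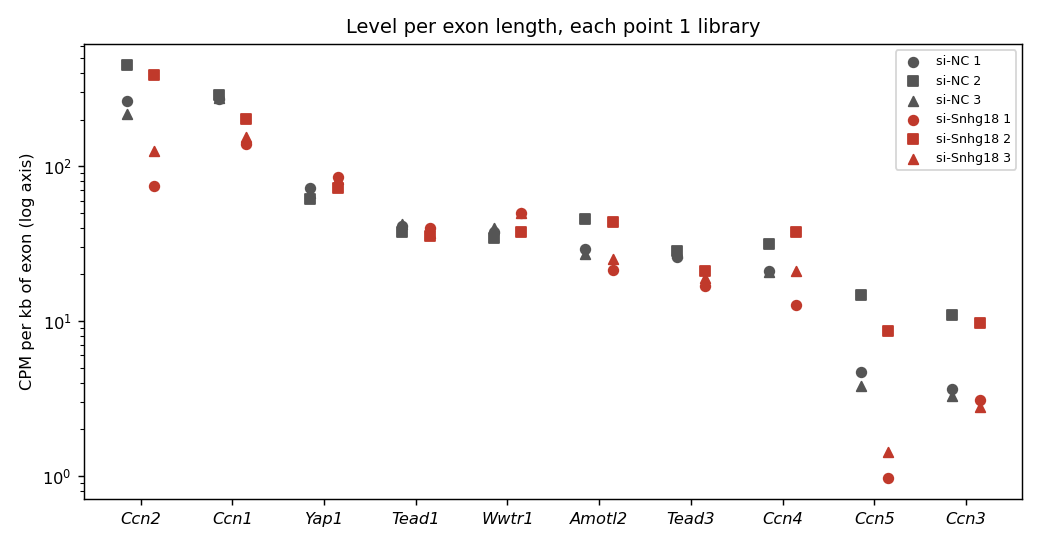
Level of each member in CPM per kilobase of exon (logarithmic axis), with a point for each of the 6 libraries, in the order of the si-NC means. *Ccn2* and *Ccn1* lie above the other members in every library except si-*Snhg18* 1, where *Ccn2* lies below *Yap1*, and *Ccn5* and *Ccn3* lie at the low end.

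Over the 6 libraries, the tested genes with log2 CPM patterns most like that of *Ccn2* were *Pclaf* (Pearson r = 0.999), *C530008M17Rik* (0.998) and *Lynx1* (0.998), and 72 genes exceeded 0.99. For *Yap1* they were *Zdhhc16* (0.997), *Sirt7* (0.996) and *Xpnpep1* (0.996), and 16 genes exceeded 0.99. These are descriptions over 6 points that fall apart by group and by number, and they set no gene apart.

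Upstream of the coactivators, 23 genes of the Hippo pathway were all tested, of which 1 rose and 5 fell without the block, with a median log2 fold change of -0.00. Over all tested genes the share called was 7.36% without the block and 27.2% with it. The Hippo calls went to 0 without si-NC 1, si-NC 3 or si-*Snhg18* 3 (9 of the genes had an unadjusted p under 0.05 in each of these edgeR fits), to 1 without si-NC 2 and to 2 without si-*Snhg18* 1, and rose to 11 without si-*Snhg18* 2. The genes that fell include the MOB adaptors that activate the LATS kinases. *Mob1a* went from 184 ± 7.29 to 131 ± 9.72 CPM (SD, n = 3, log2 fold change -0.48, adjusted p = 0.0208, edgeR), and *Mob1b* from 82.5 ± 5.20 to 51.9 ± 5.83 CPM (-0.67, adjusted p = 0.0197). *Taok1*, a kinase that activates MST, went from 161 ± 7.46 to 108 ± 7.35 CPM (-0.57, adjusted p = 0.0137). The scaffold *Amot*, the relative of *Amotl2*, fell from 127 ± 12.4 to 61.5 ± 20.9 CPM (-1.04, adjusted p = 0.0499), and the protocadherin *Dchs1* from 60.5 ± 3.46 to 28.7 ± 4.03 CPM (-1.07, adjusted p = 0.00979). *Map4k4*, a kinase that can act on LATS beside MST, rose from 651 ± 36.8 to 999.6 ± 139.9 CPM (0.62, adjusted p = 0.0311).

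With the block, 6 Hippo genes rose and 6 fell. The call added among those that fell was the kinase *Lats2* (125 ± 31.7 to 94.6 ± 20.7 CPM, log2 fold change -0.39, adjusted p = 0.00442 with the block, 0.345 without it, edgeR). Those added among the genes that rose include *Nf2*, the merlin tumour suppressor (0.35, adjusted p = 0.0088), the MST adaptor *Sav1* (0.30, adjusted p = 0.00907), *Taok2* (0.27, adjusted p = 0.0159) and *Wwc2*, a KIBRA family gene (0.29, adjusted p = 0.0183).

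The 22 genes of a TEAD target list were written by hand from a widely used signature, and 3 of them are members. All 22 were tested, 2 rose and 2 fell without the block, and the median log2 fold change was -0.12. These calls too went to 0 without si-NC 1, si-NC 3 or si-*Snhg18* 3, where 5, 7 and 6 of the genes had an unadjusted p under 0.05 (edgeR). They went to 1 without si-NC 2 or si-*Snhg18* 1 and to 9 without si-*Snhg18* 2. With all libraries, 7.36% of all tested genes were called without the block. *Axl*, a receptor tyrosine kinase gene, fell from 1921 ± 41.9 to 1038 ± 25.6 CPM (SD, n = 3, log2 fold change -0.89, adjusted p = 0.00498, edgeR), and the other gene that fell was *Ccn1*. *Myof*, a ferlin of membrane repair, rose from 783 ± 60.5 to 1082 ± 119.5 CPM (0.47, adjusted p = 0.0488). *Gadd45a*, a DNA damage response gene that p53 also controls, rose from 7.52 ± 3.33 to 24.0 ± 8.67 CPM (1.67, adjusted p = 0.0478).

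With the block, 4 target genes rose and 8 fell, with a median of -0.14. In that fit 13.6% of all tested genes rose and 13.6% fell. *Ankrd1*, with *Ccn1* and *Ccn2* the most used readout of YAP and TAZ activity, was at 252, 285 and 241 CPM in si-NC and at 119, 192 and 142 CPM in si-*Snhg18*. Its groups did not overlap, and it passed with the block (log2 fold change -0.80, adjusted p = 0.00174, edgeR) and narrowly missed without it (-0.78, adjusted p = 0.052). *F3*, the tissue factor gene, went from 175 ± 90.1 to 95.7 ± 66.8 CPM (-0.97, adjusted p = 0.00335 with the block, 0.374 without it). *Nt5e*, the CD73 ectonucleotidase gene (-1.40, adjusted p = 0.00486), *Crim1* (-0.32, adjusted p = 0.0188) and *Lats2*, which is on both lists, fell with the block and did not pass without it.

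**Figure D5:**
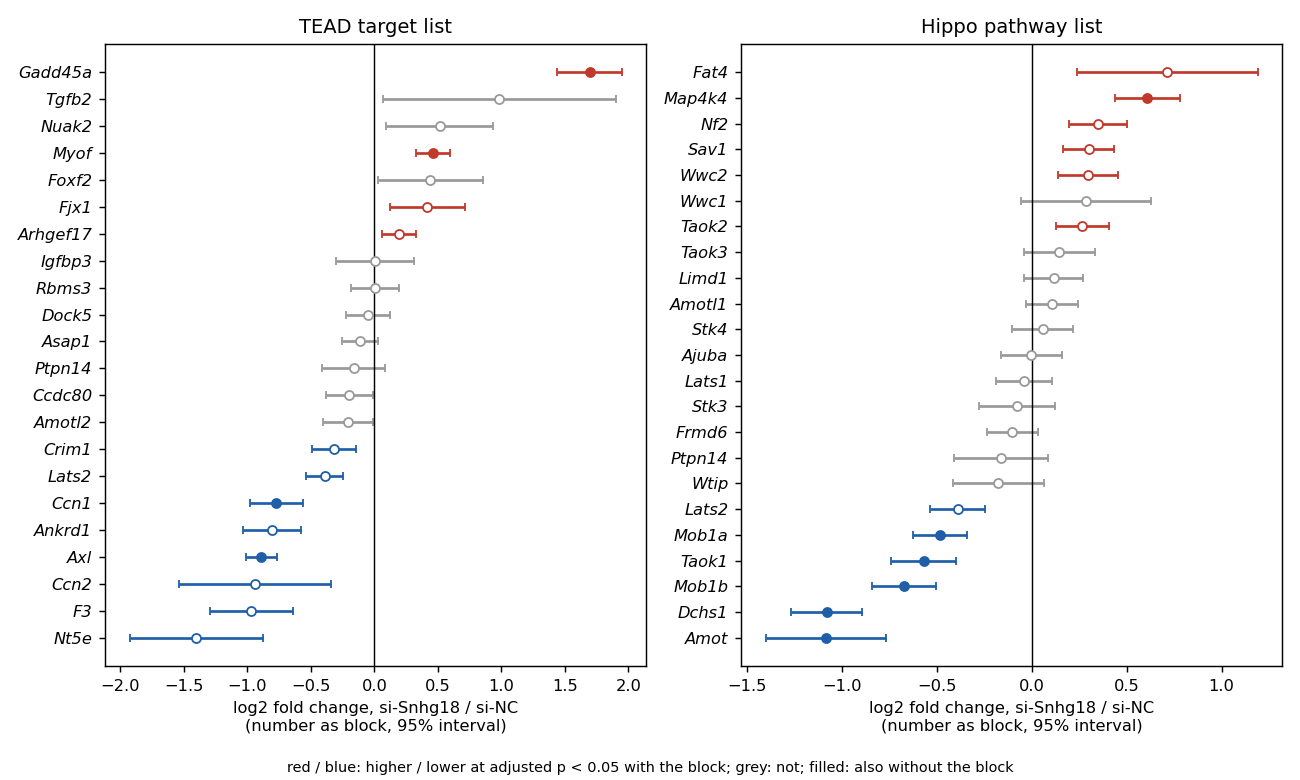
Log2 fold change of si-*Snhg18* over si-NC in the blocked fit, with 95% intervals, for the genes of the TEAD target list (left) and of the Hippo list (right). Red (higher) and blue (lower) genes passed an adjusted p of 0.05 in that fit, grey genes did not, and filled points passed without the block too. The Hippo list has called genes on both sides of 0, and the TEAD target list has 8 called below 0 and 4 above it. Of all tested genes, 27.2% were called in that fit.

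The TEAD genes that are not members rose, whereas *Tead3* fell. *Tead2* rose from 56.3 ± 0.904 to 73.5 ± 2.03 CPM (SD, n = 3, log2 fold change 0.38, adjusted p = 0.0216, edgeR) and *Tead4* from 8.31 ± 1.24 to 13.9 ± 1.88 CPM (0.75, adjusted p = 0.0474). Both calls were made with the block too (adjusted p = 0.00514 and 0.00474). Of the vestigial-like cofactors that compete with YAP and TAZ for TEAD, *Vgll3* fell with the block (542 ± 19.0 to 452 ± 39.5 CPM, -0.26, adjusted p = 0.0163) and did not pass without it (adjusted p = 0.115). *Vgll4* passed neither test (0.24, adjusted p = 0.0937 with the block), and *Vgll1* and *Vgll2*, with at most 6 reads, were not tested.

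Of 9 genes for receptors and binding partners of CCN proteins, all tested, 3 fell without the block, and 2 rose and 5 fell with it. Together with the TEAD partner genes, these calls without the block went from 5 to between 0 and 2 when any library other than si-*Snhg18* 2 was left out. Among all tested genes, 3.71% fell without the block, and 13.6% rose and 13.6% fell with it. *Itgav* (log2 fold change -0.38, adjusted p = 0.0421, edgeR) and *Itgb1* (-0.42, adjusted p = 0.0216), the subunits of integrins that bind CCN1 and CCN2, fell, as did the proteoglycan gene *Sdc4* (249 ± 19.4 to 151 ± 12.5 CPM, -0.72, adjusted p = 0.0126). With the block, *Itgb3* (-0.40, adjusted p = 0.00635) and the endocytic receptor gene *Lrp1* (-0.17, adjusted p = 0.0407) also fell, and *Itga5* (0.54, adjusted p = 0.00222) and the Wnt coreceptor gene *Lrp6* (0.23, adjusted p = 0.044) rose. Without the block the adjusted p was 0.0973 for *Itga5* and 0.172 for *Lrp6*. *Itgb5* passed neither test (-0.15, adjusted p = 0.0821 with the block).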

How the data were processed

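Libraries were prepared with the TruSeq Stranded mRNA kit. The authors deposited whole-number counts of reads per gene without normalization, with exon lengths and GRCm38 positions. The submitters' processing notes name HISAT2 and mm10, and the counting program and its strand setting were not given in the sources used here, so reads of overlapping genes may be shared. The 6 columns of counts were those of the 6 libraries, with 18097718 to 25988746 reads each. Floors of 3 counts cover counting error only, as the reads carry no molecular identifiers.

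The count table was tested as a whole with edgeR 4.0.16 under R 4.3.3 (filterByExpr with a minimum count of 10, TMM, glmQLFit, glmQLFTest). Benjamini-Hochberg adjustment ran over 14531 genes, with calls at an adjusted p under 0.05. CPM values are TMM-normalized, and log2 CPM carries a prior count of 2. Shares of single values were compared by exact permutation tests. The scripts were tested on simulated data. DESeq2 1.42.0, limma 3.58.1 (voom), RLE factors, library totals, no filter, a 1.5-fold requirement, the replicate block and leaving out each library were alternatives.

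The pairing comes from the repeat numbers of the labels, which no source ties to a shared culture. Deviations from the group means correlated within numbers 1, 2 and 3 at r = 0.410, 0.742 and 0.359 across genes, a mean of 0.503. Exchanging numbers 1 and 3 gave nearly as high a mean (0.475) and the other pairings -0.354 to -0.110, so the check separates number 2 from the rest more than 1 from 3. Each r passed 0.1, so blocked values stand beside the results they change.

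The members and lists were chosen with earlier results of these data known. Named genes are the 10 members, *Snhg18*, list genes called without the block plus up to 5 per list with the smallest adjusted p with it, and the 3 genes most like *Ccn2* and *Yap1*. *Tagln*, *Cnn1*, *Myh11*, *Des*, *Pdgfra*, *Cd53*, *Ptprc*, *Adgre1*, *Ccn6*, *Vgll1* and *Vgll2* were named outside this rule after their values were seen. So were *Acta2*, *Lmod1*, *Smtn*, *Csf1r*, *Cd68*, *Cdh5*, *Tek* and *Ptpn14*.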

Additional observations from a re-analysis of the deposited data

How the results depend on the processing

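Member fold changes kept their direction in 70 of 70 refits under other settings (RLE factors, library totals, DESeq2, voom, no low-count filter, the replicate block, DESeq2 with the block), and the blocked values in 30 of 30 (RLE factors, library totals, DESeq2). Counts of calls were 1069 genes, 2 members, 6 Hippo genes, 4 targets and 5 partner and receptor genes. DESeq2 called 2115 genes. At least 1.5-fold left 533 genes, 1 member (*Ccn1*) and 2 partner and receptor genes. The cause of these differences was not tested, beyond the fold requirement itself.

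With the replicate block the calls were 3954 genes, 6 members, 12 Hippo genes, 12 targets and 10 partner and receptor genes, and in DESeq2 with the block 3156, 5, 11, 9 and 8. The block with at least 1.5-fold (1466, 3, 5, 7 and 2) and leaving out a pair of same-numbered libraries were added after seeing the data. Without 1 pair the ranges were 651 to 4542 genes, 1 to 6 members, 4 to 13 Hippo genes, 6 to 13 targets and 2 to 10 partner and receptor genes. Each lowest count came without pair 3, where *Ccn1* was the called member. The block was planned as an alternative, and it changed no member call other than those of *Yap1*, *Wwtr1*, *Ccn2* and *Ccn5*.

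Leaving out a single library gave 0 to 3282 genes, 0 to 6 members, 0 to 11 Hippo genes, 0 to 9 targets and 0 to 6 partner and receptor genes. All tested genes gave 0 calls without si-NC 1, si-NC 3 or si-*Snhg18* 3, where edgeR's unadjusted p was under 0.05 for 2512, 2731 and 2464 genes. Members gave 0 calls in 5 of the 6 fits, with 2 or 3 at an unadjusted p under 0.05, and 6 without si-*Snhg18* 2. Log2 fold changes ranged from -1.01 to 0.59 for *Ccn3*, -0.54 to 0.26 for *Ccn4* (-0.36 to 0.13 with the block, without 1 pair) and -0.56 to 0.086 for *Amotl2*, and so turned direction. They ranged from -1.64 to -0.28 for *Ccn2* and from -2.72 to -0.20 for *Ccn5*. The differences in share ranged from -0.226 to 1.56 percentage points for *Wwtr1* and from -11.6 to 2.23 for *Ccn2*. Counting depth was lowest for *Ccn5*, with as few as 42 reads. *Ccn2* and *Ccn3*, at very different counts, had within-group SDs of log2 CPM of 0.94 and 0.97. The part of counting depth in this spread was not tested.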
